A study of Mus musculus with 18 samples.

Results

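The respiratory chain genes described here are the subunit genes of the 5 oxidative phosphorylation complexes, chosen by symbol: Nduf genes for complex I, Sdh genes for complex II, Uqcr genes for complex III, Cox4 to Cox8 genes for complex IV, Atp5 genes for ATP synthase (complex V), and the protein-coding genes of the mitochondrial genome. A gene entered with at least 10 normalised counts in at least 3 of the 18 libraries. Of 100 matching symbols, 3 pseudogenes and 8 low genes were left out. The 89 members stand among 38392 rows in all and 15472 rows past the same filter, and 76 are nuclear and 13 mitochondrial. The filter removed the 8 low genes, and of the 89 that passed, 88 had at least 10 normalised counts in all 18 libraries. The rule uses symbols and levels, not differences between groups.

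The respiratory chain passes electrons from NADH (through complex I) and succinate (through complex II) by way of ubiquinone, complex III and cytochrome c to oxygen at complex IV. Complexes I, III and IV pump protons out of the mitochondrial matrix, and ATP synthase uses their return to make ATP. Complex II is encoded by nuclear genes only, while the others combine nuclear and mitochondrial subunits, so that 2 genomes must supply each of them. The mitochondrial messenger RNAs are cut from long transcripts that cover most of the mitochondrial genome, and are therefore not independent of one another. In T cells, regulatory and memory cells are known for reliance on oxidative metabolism, and the loss of complex III is known to impair regulatory T cell function.

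The cells were CD4 T cells from donors of the strain C57BL/6 TNa TNb RAG1-/- Foxp3GFP, mice cloned by nuclear transfer from a peripherally induced regulatory T cell, so that all carry 1 T cell receptor. All were recovered from the small intestine of C57BL/6 TCRa-/- TCRb-/- hosts 6 weeks after transfer, and such hosts keep B cells, γδ T cells and innate cells. Cells of the epithelium (IEL) and of the lamina propria below it (LP) were each sorted into CD4+CD8α-Foxp3- (SP), CD4+CD8α+ (DP) and CD4+Foxp3+ (TR, regulatory) cells. Each of the 6 groups has 3 libraries, called biological replicates in the labels. Neither the ages nor the animals behind each library are given, so the p-values measure the spread between these libraries.

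A value here is a normalised count, that is, the library's read count times 1 factor per library. Recovered reads ran from 5093955 to 8851347 per library. The markers of T cells were present throughout, with a summed level of 29320 to 38620 for 10 genes, while Foxp3 stood at 66.2 to 163.6 in the 6 TR libraries and at 0 to 39.9 in the other 12. The IEL TR libraries stood apart in their spread: the median SD of log2 values over all genes tested was 0.547 there and 0.305 to 0.349 elsewhere. IEL TR replicate 1 was the most unusual, with 20.4% of its total in 7 predicted genes of very high counts, a set picked after its values were seen. Changes are log2 differences of normalised counts plus 1, first-named group minus second, given with their standard error. A gene is said to have risen or fallen only at a limma adjusted p under 0.05 over all 15472 genes.

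The mitochondrial genes lie close together, and 2 pairs overlap in the annotation, which bears on how their reads could be counted. The end of mt-Atp8 and the start of mt-Atp6 share 43 bases (GRCm38 chromosome M, 7927 to 7969, plus strand), and the end of mt-Nd4l and the start of mt-Nd4 share 7 bases (10167 to 10173). The shared stretches are printed with the start codon of the second gene in capitals.
mt-Atp8 and mt-Atp6: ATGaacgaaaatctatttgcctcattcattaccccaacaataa
mt-Nd4l and mt-Nd4: ATGctaa
A read that covers such a stretch belongs to both genes and may have been left uncounted, so the levels of these 4 genes relative to the others are uncertain, more so for the short mt-Atp8 and mt-Nd4l. The annotated gene mt-Nd6 lies on the opposite strand to the other 12. The strand setting of the counting is not given in the sources used here. Near-copies of mitochondrial genes in the nuclear genome can also share reads with them.

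Per kb of exon, mitochondrial genes had the highest levels among the members. Averaged over all 18 libraries, mt-Atp6 had 29690 normalised counts per kb, mt-Co3 15570, mt-Atp8 14500 and mt-Nd1 11910. The lowest mitochondrial genes on this scale were mt-Nd4l with 791.4, mt-Nd6 with 659.0 and mt-Nd5 with 624.8. The order does not follow the complexes, since mt-Nd1 and mt-Nd5 encode subunits of the same complex I. Among nuclear genes the highest per kb were Cox8a with 2651, Ndufa1 with 1920, Cox7a2l with 1695 and Cox4i1 with 1480. Lengths are of merged GENCODE exons, so genes with long rare exons, such as Ndufb2 (35.59 per kb), are understated.

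The isoforms of complex IV present were those of most tissues. Cox4i1, Cox6a1, Cox6b1, Cox7a2 and Cox8a had mean normalised counts of 2294, 890.1, 1018, 920.8 and 1641. Their counterparts known from muscle, lung or testis, Cox4i2, Cox6a2, Cox6b2, Cox7a1 and Cox8b, had at most 10.46 normalised counts in any library, and Cox8b had 0. Ndufa4l2, a paralog of Ndufa4 known for its induction under low oxygen, was at 0 in all 18 libraries. Ndufa4, whose product belongs to complex IV despite its name, is counted with complex I here because the grouping is by symbol. The 3 genes of the ATP synthase c ring were all present, with Atp5g3 at a mean of 1791, Atp5g1 at 553.3 and Atp5g2 at 326.5.

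Regulatory cells had less mitochondrial messenger RNA than the other populations in both sites, while nuclear subunit RNA was level. In the epithelium the 13 mitochondrial genes together gave 88315, 91389 and 82993 normalised counts in the 3 SP libraries, 80351, 81223 and 77283 in DP, and 68400, 59697 and 71117 in TR. In the lamina propria the sums were 98381, 94505 and 85553 in SP, 100969, 91022 and 87707 in DP, and 72180, 62026 and 64506 in TR. Every TR library lay below every SP and DP library of either site. The mean in TR was at 75.8% of SP in the epithelium and at 71.4% of SP in the lamina propria. Within the epithelium DP was at 90.9% of SP without overlap, while in the lamina propria the 2 groups overlapped. As a share of library totals the epithelial DP and SP groups overlapped too, at 1.33% to 1.47% in DP and 1.38% to 1.56% in SP.

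**Figure D1:**
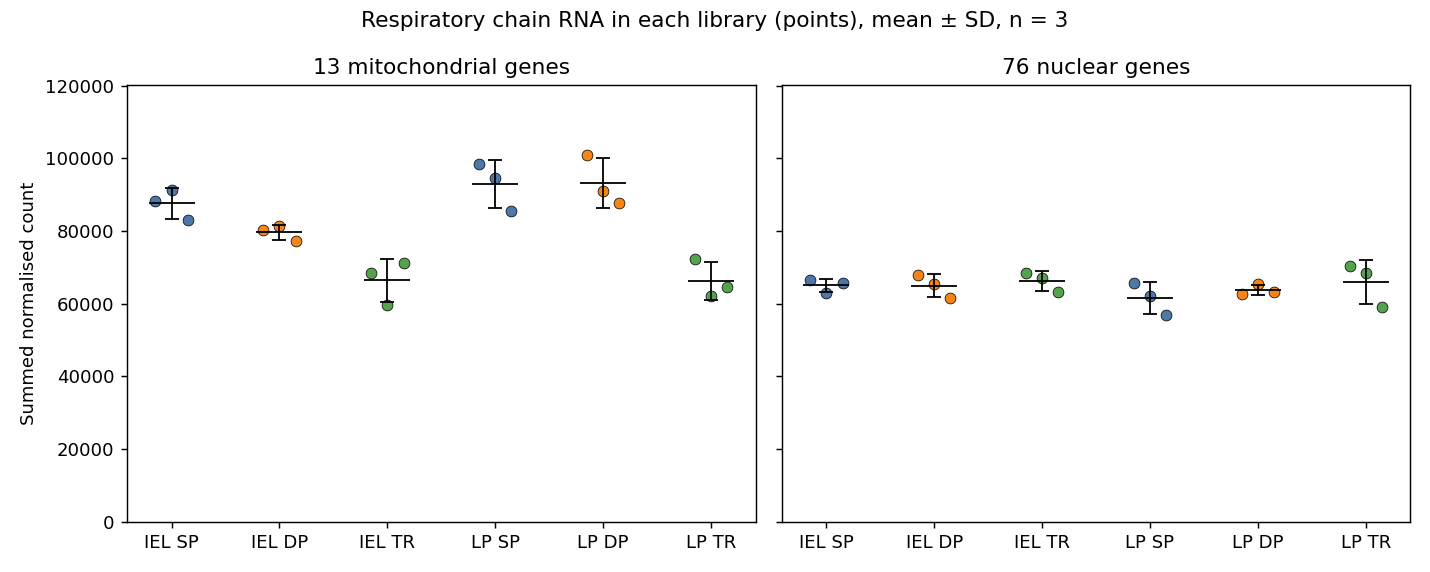
Summed normalised counts of the 13 mitochondrial genes (left) and the 76 nuclear genes (right) in each of 18 libraries, grouped by site and population. Points are libraries and bars the mean ± SD (n = 3). On the left the 6 TR libraries sit between 59697 and 72180, below all 12 others, and on the right the groups overlap.

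Nuclear subunit RNA showed no such step. Its sum had a mean ± SD of 65009 ± 1870 in IEL SP, 64980 ± 3120 in IEL DP, 66213 ± 2670 in IEL TR, 61497 ± 4410 in LP SP, 63788 ± 1320 in LP DP and 65945 ± 6110 in LP TR (n = 3 each). The 3 populations of each site overlapped. The ratio of mitochondrial to nuclear RNA was therefore 1.349 ± 0.0963 in IEL SP and 1.226 ± 0.0371 in IEL DP against 1.005 ± 0.118 in IEL TR. In the lamina propria it was 1.509 ± 0.0135 in SP and 1.463 ± 0.127 in DP against 1.008 ± 0.0944 in TR. The highest TR ratio was 1.125 and the lowest ratio elsewhere 1.184. No test is given for such sums and ratios, because groups of 3 are too small for an exact permutation test to pass. In bulk RNA, fewer cells rich in mitochondrial RNA and less of it per cell cannot be told apart.

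The mitochondrial ribosomal RNAs, which come from the start of the same long transcript, overlapped between TR and SP. The genes mt-Rnr1 and mt-Rnr2 summed to 52846, 49147 and 51256 in IEL SP and 76650, 48479 and 45917 in IEL TR. In the lamina propria they summed to 73000, 51464 and 59234 in SP and 76108, 73146 and 64312 in TR. In the epithelium the overlap rests on IEL TR replicate 1, since the other 2 TR libraries lay below all 3 SP libraries. In the lamina propria the TR libraries were within or above the range of SP. For mt-Rnr2, the large subunit RNA, the change was 0.14 in IEL TR against SP (limma adjusted p = 0.776) and 0.24 in LP TR against SP (limma adjusted p = 0.316). The transfer RNA genes gave too few counts (641 to 982 per library in sum, mostly from mt-Ts1) to describe one by one. Their sum was at 80.1% of SP in IEL TR, without overlap, and at 92.9% in LP TR, with overlap.

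**Figure D2:**
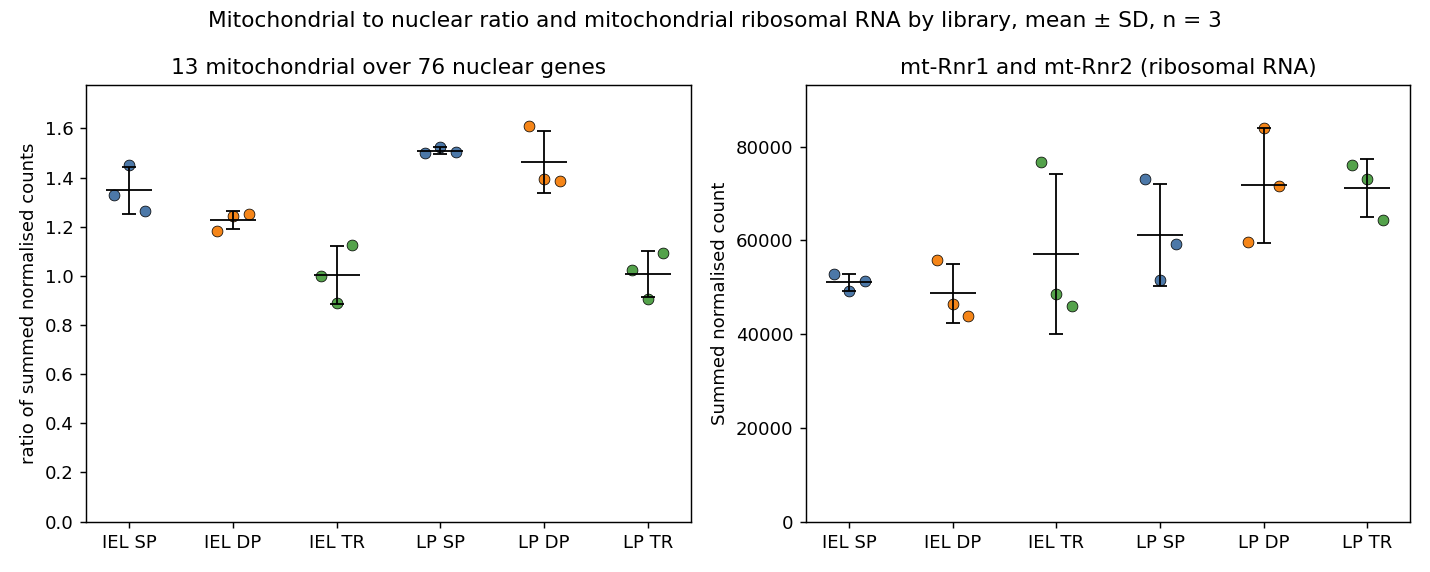
Left, ratio of the summed normalised counts of the 13 mitochondrial to the 76 nuclear genes; right, summed normalised counts of the mitochondrial ribosomal RNA genes mt-Rnr1 and mt-Rnr2, in each library. Points are libraries, bars the mean ± SD (n = 3). The ratio is 0.889 to 1.125 in the 6 TR libraries and at least 1.184 in the others, while ribosomal RNA overlaps between populations of a site.

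Gene by gene, 6 of 13 mitochondrial members (46.2%) fell in LP TR against LP SP and 0 rose, where 9.5% of all genes tested passed, 5.03% higher and 4.47% lower. The 6 were mt-Nd1, mt-Nd4, mt-Cytb, mt-Co3, mt-Atp6 and mt-Atp8. All 13 changes were below 0, with a median of -0.43 against -0.01 for all genes tested. In 10 of the 13 the TR libraries lay wholly below the SP libraries, against 11.9% of all genes. Because the 13 share precursor transcripts, these counts do not stand for 13 independent observations.

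The complex I genes together differed more than the other mitochondrial genes: their sum was at 61.0% of SP in LP TR and 67.1% in IEL TR, against 75.1% and 78.8% for the rest, a difference that was not tested. That sum, with a mean of 24774 in LP SP, rests largely on mt-Nd1. Gene by gene in LP TR against SP the ranges overlapped, from -0.78 to -0.27 (median -0.58) in complex I and from -0.66 to -0.28 (median -0.41) in the rest. The gene mt-Nd1 encodes a core membrane subunit of complex I next to the ubiquinone site. It had 16019, 13314 and 13557 normalised counts in LP SP, 16785, 13634 and 13229 in LP DP and 9086, 7410 and 8500 in LP TR. The groups did not overlap, and TR was at 58.3% of SP, a change of -0.78 ± 0.10 (limma adjusted p = 0.00029). In the epithelium mt-Nd1 had 12980, 12752 and 12506 in SP, 11132, 10350 and 9709 in DP and 7624, 7150 and 9419 in TR. TR was at 63.3% of SP there, a change of -0.67 ± 0.11 (limma adjusted p = 0.0419). The highest TR library lay below the lowest DP library.

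The gene mt-Nd4, for a proton-pumping subunit of complex I, had 3794, 4661 and 3889 in LP SP against 3033, 2421 and 2362 in LP TR, a change of -0.66 ± 0.13 (limma adjusted p = 0.00502). For mt-Nd2, another pumping subunit, LP SP had 4364, 2226 and 3017 and LP TR 2206, 1406 and 1932, a change of -0.76 ± 0.23 that did not pass. The SP libraries of mt-Nd2 spread widely, with the highest well above the others. The genes mt-Nd3, mt-Nd4l, mt-Nd5 and mt-Nd6 had changes of -0.42, -0.58, -0.46 and -0.27 in LP TR against SP, and none passed.

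Cytochrome b, the mitochondrial subunit of complex III, followed. Its gene mt-Cytb had 8353, 12008 and 8272 in LP SP and 5682, 5802 and 6397 in LP TR, a change of -0.66 ± 0.14 (limma adjusted p = 0.00857). LP SP replicate 2 was the highest, and the groups did not overlap. The ATP synthase genes mt-Atp6 and mt-Atp8, both for subunits of the membrane part, fell by 0.41 each, with standard errors of 0.11 and 0.09. The complex IV gene mt-Co3 fell by 0.43, with a standard error of 0.12.

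The catalytic subunit of complex IV passed in none of the 4 comparisons with TR. Its gene mt-Co1 had 12246, 16603 and 14219 in LP SP, 12221, 12129 and 13131 in LP DP and 11900, 11360 and 12036 in LP TR. The changes were -0.28 ± 0.11 in TR against SP (95% interval under limma from -0.51 to -0.05, adjusted p = 0.136) and 0.09 ± 0.11 in DP against TR (adjusted p = 0.688). The order of the mitochondrial genes in size of change was not tested.

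**Figure D3:**
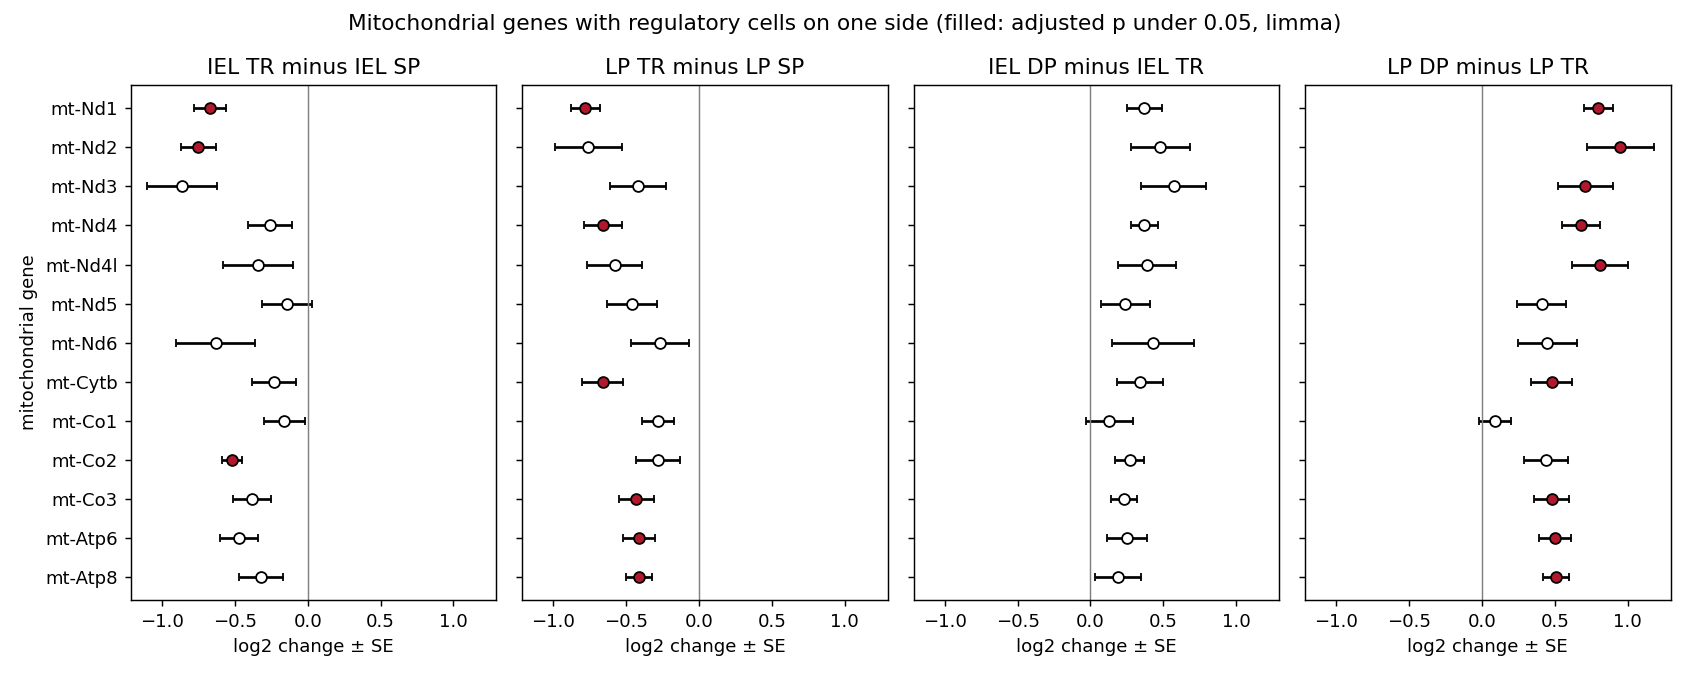
Log2 change (± SE, from limma) of each of the 13 mitochondrial genes in the 4 comparisons of regulatory cells with SP or DP cells of the same site, with filled points for adjusted p under 0.05. All 13 points lie on the side of lower TR in each panel, from -0.86 to -0.14 in IEL TR minus SP and from 0.09 to 0.95 in LP DP minus TR.

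Against DP cells the picture in the lamina propria was alike. There 9 of 13 mitochondrial members (69.2%) were higher in DP than in TR, where 5.42% of all genes tested were higher and 7.76% lower. In 10 of the 13 the libraries did not overlap, against 14.1% of all genes higher and 16.6% lower. The changes were 0.80 ± 0.10 for mt-Nd1 (limma adjusted p = 0.000136), 0.95 ± 0.23 for mt-Nd2, 0.81 ± 0.19 for mt-Nd4l, 0.71 ± 0.19 for mt-Nd3 and 0.68 ± 0.13 for mt-Nd4. Outside complex I, mt-Atp8, mt-Atp6, mt-Co3 and mt-Cytb were higher by 0.51, 0.50, 0.48 and 0.48. Both comparisons use the same LP TR libraries, so they are not separate evidence.

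In the epithelium the direction was the same with fewer calls. Of the 13 mitochondrial members, 3 (23.1%) fell in IEL TR against IEL SP, where 1.42% of all genes fell and 1.49% rose. They were mt-Nd1, mt-Nd2 (2963 ± 213 in SP to 1767 ± 207 in TR, a change of -0.75 ± 0.12, limma adjusted p = 0.0391) and mt-Co2. The gene mt-Co2, for the subunit of complex IV that accepts electrons from cytochrome c, had 5728, 5646 and 5417 in SP and 3824, 3914 and 3964 in TR, a change of -0.52 ± 0.07 (limma adjusted p = 0.0232). All 13 changes were below 0, with a median of -0.38 against -0.05 for all genes, and in 6 the libraries did not overlap, against 11.7% of all genes. These 3 calls were fragile: leaving out any 1 of the 3 SP libraries or IEL TR replicate 2 left 0, leaving out IEL TR replicate 3 left mt-Nd1 alone, and leaving out the unusual IEL TR replicate 1 also lost mt-Nd1 (limma adjusted p = 0.0615) while mt-Co2 and mt-Nd2 passed.

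Between IEL DP and IEL TR, limma called 0 mitochondrial members, where it called 4.14% of all genes, 1.78% higher and 2.36% lower. At an unadjusted p under 0.05 there were 5, DESeq2 called 1 and edgeR 0. All 13 changes were above 0 with a median of 0.34, and in 7 the libraries did not overlap, against 12.1% of all genes higher. A count of 0 here does not show that the groups were alike. In simulated data limma recovered 0% of genes changed 2-fold and 20% of those changed 4-fold in this comparison. Those genes were drawn at random from all genes tested. Mitochondrial members spread less, with a median SD of log2 values in IEL TR of 0.233 against 0.547 for all genes. The simulated shares therefore do not measure recovery for the members.

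The difference between the sites was tested directly. For the change from SP to TR, limma called 0 of 13 mitochondrial and 0 of 76 nuclear members as different between epithelium and lamina propria, where 0.11% of all genes tested were called, 0.0711% higher and 0.0388% lower. At an unadjusted p under 0.05 there were 0 mitochondrial members and 1 nuclear member, and edgeR and DESeq2 called 0 of either. For mt-Nd1 the difference of changes was 0.11, with a 95% interval from -0.25 to 0.47. For mt-Cytb it was 0.43 with an interval from -0.11 to 0.96.

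Other quantities moved with TR, and their part in the mitochondrial difference was not tested. Of the 12 B and plasma cell markers in the table, summed levels were 637.1 to 2315 in TR libraries and 61.74 to 130.2 elsewhere, and 1 gene, Ighm, was apart (455.3 to 1432 against 0 to 30.14). Of 14 myeloid markers, summed at 1269 to 2067 in TR and 588.8 to 1091 elsewhere, Cybb was apart (360.2 to 1130 against 0 to 17.89). Cd14 was at 0 in all TR libraries and at most 6.18 elsewhere, too low to compare. Of 8 innate lymphoid and NK markers, summed at 380.3 to 1272 against 77.78 to 217.2, Il1rl1 was apart (370.3 to 1262 against 25.65 to 125.2). Ncr1 was at 0 in all TR libraries and at most 1.07 elsewhere, also too low to compare. Il1rl1, the IL-33 receptor, is also known from regulatory T cells of the gut. Of 24 epithelial markers, summed at 189.3 to 481.9 in TR and 220.9 to 1230 elsewhere, Epcam was higher in TR and without overlap (156.7 to 372.1 against 1.03 to 103.5), while Cdh1 was lower in TR and without overlap (3.25 to 9.46 against 93.3 to 408.1). The other 22 overlapped, among them Krt8 (0 to 2.06 in TR, 0 to 99.38 elsewhere), Krt18 (0 to 41.25, 0 to 86.54) and Fabp2 (0 to 41.93, 0 to 508.75).

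Immediate early genes, which also respond to tissue dissociation, moved with TR in the lamina propria, and their part in the result was not tested. The 16 genes of that list summed to 35210 to 48540 in LP SP and 37330 to 44570 in LP DP, against 19540 to 29620 in LP TR. In the epithelium the sums overlapped, with 17950 to 21170 in SP, 16810 to 22850 in DP and 18920 to 24300 in TR. Of the list, Dusp1 alone passed in IEL TR against IEL SP, higher by 1.89 ± 0.16 (limma adjusted p = 0.00549). Proliferation genes summed to 3046 to 3828 in IEL TR against 4435 to 5192 in IEL SP, and to 5273 to 7628 in LP TR against 3864 to 6415 in LP SP.

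Between DP and SP cells no member of either genome passed. In the epithelium limma called 0 of 89 members, where 0.213% of all genes were called, 0.0452% up and 0.168% down. Before adjustment 3 members had a p under 0.05, and edgeR and DESeq2 called 0. The mitochondrial median was -0.15, and in 5 of the 13 genes the DP libraries lay wholly below SP, against 6.33% of all genes lower and 6.35% higher. In the lamina propria limma again called 0 of 89, where 0.769% of all genes were called, 0.252% up and 0.517% down. Before adjustment 9 had a p under 0.05, with 0 by edgeR and 1 nuclear member by DESeq2. The nuclear median there was 0.10 and the mitochondrial median 0.10. In 13 of the 76 nuclear genes the DP libraries lay above SP and in 1 below, against 6.33% and 7.97% of all genes. The sum of nuclear complex I genes was 9.83% higher in LP DP than in LP SP, without overlap. Limma called 0 of the 89 for a different DP effect between the sites, where 0.0% of all genes were called, with 4 members at an unadjusted p under 0.05, and edgeR and DESeq2 called 0.

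Among nuclear genes, single subunits differed between TR and the other LP cells without a common direction. In LP TR against LP SP, 4 of 76 (5.26%) rose, a share near the 5.03% of all genes tested, and 0 fell. Ndufa6, an accessory subunit in the matrix arm of complex I (GRCm38 chromosome 15, 82350140 to 82354322), had 877.6, 754.6 and 785.8 in LP SP, 1059, 1088 and 1124 in LP DP and 1271, 1216 and 1227 in LP TR. All 3 populations of the lamina propria were apart for this gene. The change from SP to TR was 0.62 ± 0.10 (limma adjusted p = 0.00163). In the epithelium it had 1030, 860.3 and 1093 in SP and 1317, 1419 and 1202 in TR, also without overlap, but it did not pass.

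The other 3 were Ndufa7, Ndufv2 and Uqcrh. Ndufa7, another accessory subunit of complex I, rose by 0.54 ± 0.14 and Uqcrh, the hinge protein of complex III that helps cytochrome c bind, by 0.35 ± 0.09. Ndufv2, a core subunit that carries an iron-sulfur cluster near the NADH site, had 658.5, 707.6 and 606.2 in LP SP, 675.2, 674.5 and 680.9 in LP DP and 988.7, 870.5 and 819.4 in LP TR. It rose by 0.44 ± 0.11 against SP (limma adjusted p = 0.0206). In the epithelium its TR libraries were at 540.0, 1127 and 908.0, so that no direction could be read there.

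In LP DP against LP TR, 2 of 76 nuclear members were higher and 3 lower, a total share of 6.58%, where 13.2% of all genes were called. Ndufs7, a core subunit with the iron-sulfur cluster that passes electrons to ubiquinone, had 621.6, 621.0 and 688.4 in LP DP and 513.8, 407.9 and 400.6 in LP TR, a change of 0.55 ± 0.14 (limma adjusted p = 0.0176). Ndufa12 was higher in DP by 0.50 ± 0.14. Sdhb, the iron-sulfur subunit of complex II, was lower in DP by 0.60 (797.9, 956.5 and 812.7 against 1448, 1464 and 1030). Ndufa8 and Ndufv2 were also lower in DP. The subunits of complex I therefore moved in both directions in the same comparison, while all 7 mitochondrial complex I changes were above 0 and 5 of them passed.

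In the epithelium, limma called 0 of 76 nuclear members in TR against SP, where 2.91% of all genes were called, and 0 in DP against TR. At an unadjusted p under 0.05 there were 8 and 5, DESeq2 called 3 and 2, and edgeR 0 and 0. Complex II is nuclear only, and its 4 genes summed to 3486 ± 66.2 in IEL TR against 4241 ± 243 in IEL SP (n = 3 each), without overlap, at 82.2%. The 8 nuclear genes of complex III differed in the opposite direction, with sums of 6679 ± 872 and 5804 ± 138 (n = 3 each), also without overlap. The TR sums were 7658 in the unusual replicate 1, then 6393 and 5985, against at most 5959 in SP. As a share of library totals complex III overlapped, at 0.0996% to 0.105% in TR and 0.0955% to 0.105% in SP. Sdha, the flavoprotein of complex II, had a change of -0.47 ± 0.12 that did not pass (limma adjusted p = 0.113). In the lamina propria the sums of complex II were 3792 ± 241 in TR and 3526 ± 400 in SP and overlapped.

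**Figure D4:**
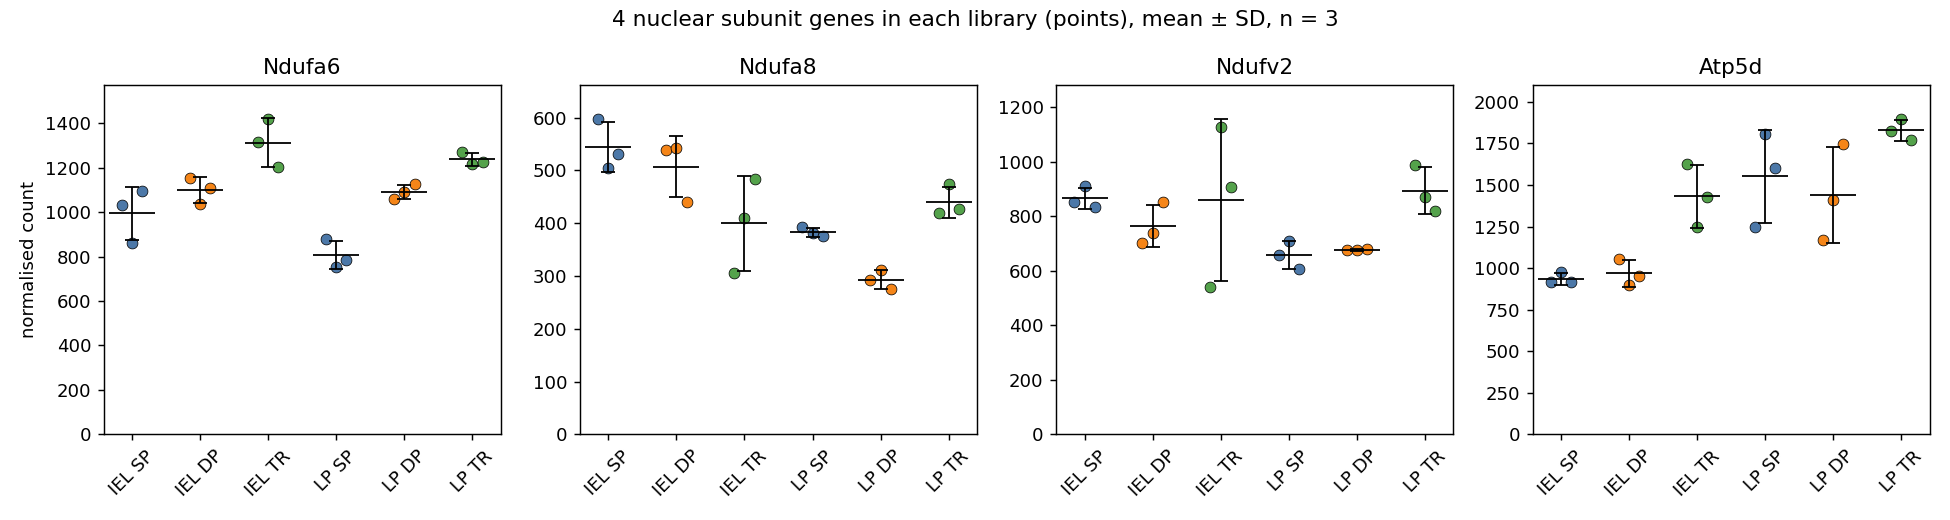
Normalised counts of Ndufa6, Ndufa8, Ndufv2 and Atp5d in each library, by site and population, with points for libraries and bars for the mean ± SD (n = 3). Ndufa6 is highest in TR of both sites, Ndufa8 is lowest in LP DP by its mean, Ndufv2 is widely spread in IEL TR, and Atp5d is lowest in IEL SP and IEL DP.

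Between the sites, the nuclear genes of complex I were mostly higher in the epithelium. In SP cells 34 of the 36 changes were above 0 (IEL minus LP), with a median of 0.21 against 0.03 for all genes tested. In DP cells 29 of 36 were above 0 with a median of 0.14 against 0.05, and in TR cells 25 of 36 with a median of 0.12 against -0.05. Complexes III, IV and V had medians of -0.02, 0.06 and 0.04 in SP cells. The sum of the 36 genes was 19715 ± 890 in IEL SP against 16465 ± 1020 in LP SP, 19869 ± 679 against 18083 ± 469 in DP, and 20285 ± 564 against 17908 ± 1740 in TR (n = 3 each). The SP and DP sums did not overlap between sites, and the TR sums did. In 12 of the 36 the IEL libraries lay wholly above LP in SP cells, 12 in DP and 6 in TR, against 14.1%, 15.4% and 8.79% of all genes. Complex II, with 4 genes, was at 120% of LP in SP cells, without overlap, and the TR sums overlapped.

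**Figure D5:**
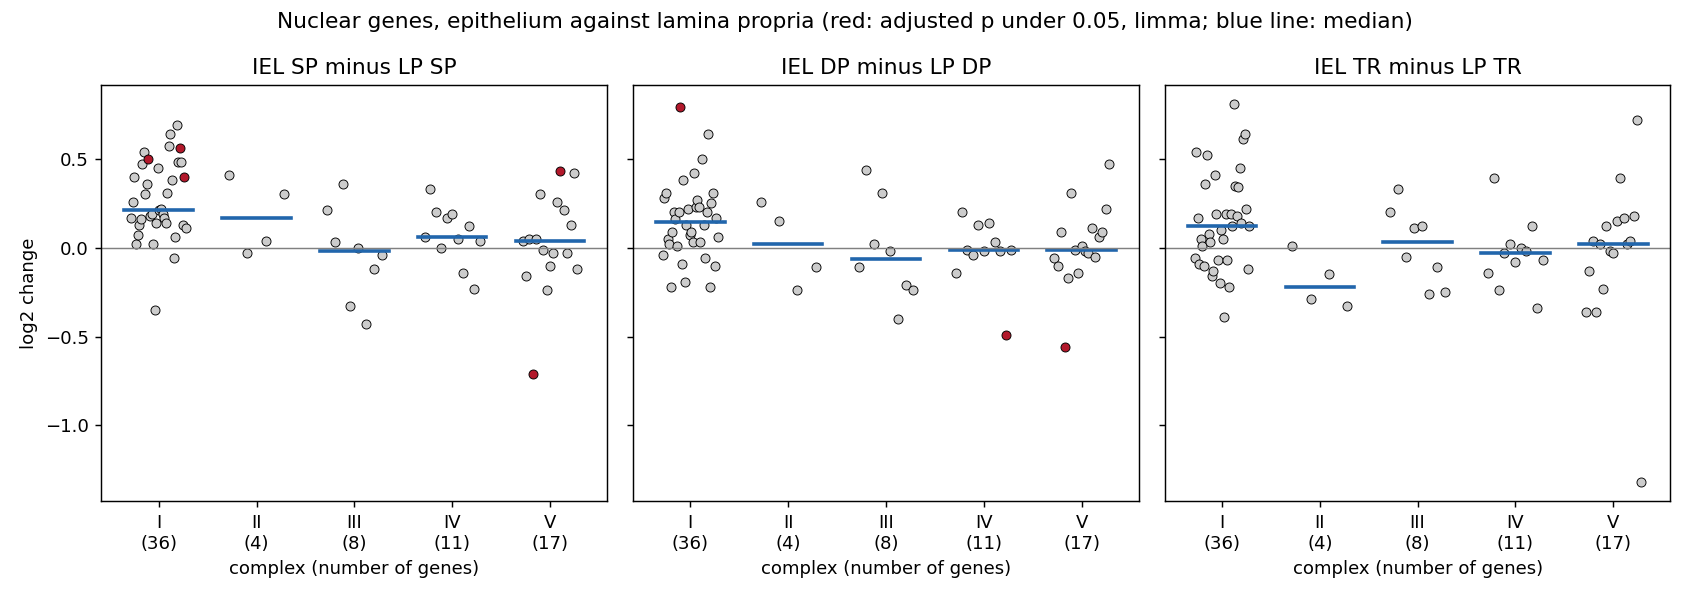
Log2 change between epithelium and lamina propria (IEL minus LP) of each nuclear member, by complex, in SP, DP and TR cells. Red points have a limma adjusted p under 0.05, and blue lines are medians, which for complex I are 0.21, 0.14 and 0.12 and for the other complexes lie between -0.22 and 0.17.

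Few of these genes passed one by one. In SP cells 3 of 36 complex I genes rose in the epithelium, Ndufs7, Ndufa8 and Ndufv2, and over all 76 nuclear members 4 rose and 1 fell. These shares, 5.26% and 1.32%, stand beside 4.25% and 5.66% of all genes tested, 9.91% in total. Ndufs7 had 742.0, 744.2 and 582.9 in IEL SP against 492.1, 492.6 and 414.9 in LP SP, a change of 0.56 ± 0.14 (limma adjusted p = 0.0228). Ndufs3, of the same arm, had a change of -0.06 ± 0.16 that did not pass.

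Ndufa8, an accessory subunit of complex I in the intermembrane space (chromosome 2, 36036326 to 36049406), differed between the sites in SP and DP cells. It had 538.6, 542.8 and 439.9 in IEL DP and 292.8, 310.9 and 275.0 in LP DP, a change of 0.79 ± 0.12 (limma adjusted p = 0.0012). In SP cells it had 596.8, 504.7 and 531.1 against 392.5, 380.6 and 375.5, a change of 0.50 ± 0.12 (limma adjusted p = 0.0198). In TR cells the sites overlapped, with 305.7, 409.7 and 484.5 in IEL and 419.7, 473.8 and 426.1 in LP. LP DP was also below LP TR, by 0.58 ± 0.12 (limma adjusted p = 0.00564). It was the 1 nuclear member of 76 to rise in IEL DP against LP DP, where 4.1% of all genes rose.

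Atp5d, the delta subunit in the central stalk of ATP synthase (chromosome 10, 80138632 to 80145818), fell in the epithelium in SP and DP cells. The 17 nuclear genes of its complex had no common direction, with 9 changes above 0 in SP cells and 8 in DP cells. Atp5d had 915.3, 975.3 and 915.4 in IEL SP and 1250, 1805 and 1601 in LP SP, a change of -0.71 ± 0.15 (limma adjusted p = 0.00738). In DP cells it had 1058, 897.8 and 950.5 against 1170, 1408 and 1745, a change of -0.56 ± 0.15 (limma adjusted p = 0.0312). In TR cells IEL had 1625, 1246 and 1430 and LP 1824, 1896 and 1769, without overlap but not passing. The catalytic subunit Atp5b, the most abundant nuclear member by count, had a change of -0.16 ± 0.10 in SP cells that did not pass (limma adjusted p = 0.334).

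Of the remaining calls, Atp5j2, a membrane subunit of ATP synthase, rose by 0.43 ± 0.10 in IEL SP against LP SP. Cox7c, a small subunit of complex IV, fell by 0.49 ± 0.15 in IEL DP against LP DP (limma adjusted p = 0.0494), a call lost on leaving out any 1 of the 6 libraries (limma adjusted p = 0.0825 to 0.139). In total 1 of 76 nuclear members rose and 2 fell in DP cells (9.51% of all genes were called in either direction). In TR cells limma called 0 of 89 members between the sites, where 0.601% of all genes were called, 0.0323% up and 0.569% down. Before adjustment 3 had a p under 0.05, and edgeR and DESeq2 called 0. The immediate early list differed between the sites in the same cells, with 8 of its 16 genes lower in IEL SP than in LP SP and 8 lower in IEL DP than in LP DP, where 5.66% and 5.42% of all genes were lower. Its part in the nuclear differences was not tested.

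The mitochondrial genes gave 1 call between the sites. In SP cells 0 of 13 passed, with 1 at an unadjusted p under 0.05, and edgeR and DESeq2 called 0, and the median change was -0.06. In DP cells 1 of 13 fell, where 5.42% of all genes fell, and the median was -0.31. The sum was at 85.4% of LP in DP cells, without overlap, and that of mitochondrial ribosomal RNA at 67.9%. As a share of library totals the sums of the 13 genes overlapped, at 1.33% to 1.47% in IEL DP and 1.42% to 1.67% in LP DP. The gene that fell was mt-Nd1, at 71.5% of its LP level, a change of -0.48 ± 0.10 (limma adjusted p = 0.00997). In TR cells the mean sums of the 13 genes were 66405 ± 5970 in IEL and 66237 ± 5290 in LP (n = 3 each).

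Nuclear respiratory genes are known targets of the factors NRF1, GABP (an ETS factor) and YY1, so the promoters of the nuclear members were read for short forms of their motifs. RefSeq promoter windows (GRCm38.p6, 250 bases before to 50 after a start) matched 63 of the 76 nuclear members, with 69 windows. The letters searched on both strands were GCGCA and GCGC with any 1 base between them for NRF1, CCGGAAG for ETS factors and AANATGGC for YY1. The ETS and YY1 letters can overlap, and 0 of the 69 windows held such an overlap. The NRF1 letters were in 26.1% of member windows, 9.66% of the 12465 windows of genes past the filter and 4.6% of all 32851 windows. The ETS letters were in 23.2%, 17.6% and 8.86%, and the YY1 letters in 26.1%, 8.48% and 6.05%. A match is a description of the letters, not of binding.

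The 250 bases before the start are shown for the 3 nuclear genes whose calls were kept under every alternative setting in at least 1 comparison, Ndufa6 (chr15:82354292-82354541, minus strand), Ndufa8 (chr2:36049339-36049588, minus strand) and Atp5d (chr10:80142065-80142314, plus strand, at the more downstream of its RefSeq starts). Capitals mark a match to the NRF1 letters, and of the stretches printed only that of Ndufa8 holds one. The full window of Ndufa6 also held the letters, outside the 250 bases shown, and those of Atp5d did not.
Ndufa6: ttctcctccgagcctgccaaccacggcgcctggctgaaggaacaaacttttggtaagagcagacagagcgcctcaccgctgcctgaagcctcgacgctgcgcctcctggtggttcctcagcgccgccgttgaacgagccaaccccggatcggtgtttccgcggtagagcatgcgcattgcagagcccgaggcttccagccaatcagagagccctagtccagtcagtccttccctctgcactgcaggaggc
Ndufa8: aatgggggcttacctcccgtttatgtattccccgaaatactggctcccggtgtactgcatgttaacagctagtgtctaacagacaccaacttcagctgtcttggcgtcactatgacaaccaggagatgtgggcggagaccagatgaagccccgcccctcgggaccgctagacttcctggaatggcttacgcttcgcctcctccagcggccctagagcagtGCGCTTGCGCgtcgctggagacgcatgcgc
Atp5d: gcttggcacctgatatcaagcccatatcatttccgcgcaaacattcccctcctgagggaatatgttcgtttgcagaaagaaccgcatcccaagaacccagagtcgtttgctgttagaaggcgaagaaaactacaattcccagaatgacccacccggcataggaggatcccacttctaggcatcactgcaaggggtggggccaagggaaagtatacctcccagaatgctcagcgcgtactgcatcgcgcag
Ndufa8 rose and Atp5d fell in the epithelium, and Ndufa6 rose in LP TR against LP SP. With 3 genes no relation between the letters and the direction can be read.

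Other genes of the pathway were taken from lists. In the list of 18 genes for upkeep and transcription of mitochondrial DNA, 4 rose and 1 fell in IEL SP against LP SP, and 3 rose and 1 fell in IEL DP against LP DP. Of all genes tested 4.25% rose and 5.66% fell in the former and 4.1% and 5.42% in the latter. Tfam, the packaging and transcription factor of mitochondrial DNA, had 457.6, 457.8 and 553.2 in IEL SP and 281.2, 277.6 and 317.6 in LP SP, a change of 0.74 ± 0.14 (limma adjusted p = 0.00412). Polg2, the accessory subunit of the mitochondrial DNA polymerase, fell in the epithelium in all 3 populations, by 2.11, 2.08 and 2.00 in SP, DP and TR. Between LP TR and LP SP, 0 of the 18 passed (limma), with 4 at an unadjusted p under 0.05, and Tfam was higher in TR by 0.45 without passing (adjusted p = 0.0603).

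Several genes next to the chain differed strongly between sites. Slc25a3, the phosphate carrier that feeds ATP synthase, was at 3234 ± 142 in IEL SP against 9099 ± 990 in LP SP, 3066 ± 261 against 8425 ± 391 in DP and 3895 ± 556 against 8754 ± 686 in TR (n = 3 each). The changes of -1.49, -1.46 and -1.18 all passed (limma adjusted p = 2.47e-07, 2.68e-07 and 0.0339). Usmg5, a small ATP synthase subunit that the symbol rule does not take, was at 38.5% to 42.7% of its LP level in the 3 populations and fell in each. Coq10b, which binds coenzyme Q, fell by 3.46 in SP and 3.22 in DP cells. Gabpb1, a subunit of GABP, fell by 2.02 and 1.75 in the same comparisons. Not all called genes of these lists fell. From the lists that hold Gabpb1 and Slc25a3, Creb1 rose by 0.83 and Slc25a1 by 1.53 in SP cells, and Vdac3 by 0.61 in DP cells. Among 76 mitochondrial ribosomal protein genes, 11 rose and 0 fell in IEL SP against LP SP, where 4.25% of all genes rose and 5.66% fell, and 63 changes were above 0.

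Assembly factors were compared between the sites beside the same 4.25% of all genes higher and 5.66% lower in SP cells. Of 15 complex I assembly genes 2 rose and 0 fell in SP cells (Tmem186 by 2.35 ± 0.28 and Ndufaf3 by 1.35 ± 0.31), with 13 of 15 changes above 0. Of 20 complex IV assembly genes 2 rose and 0 fell (Coa3 by 0.92 and Coa6 by 1.23). Of 11 assembly genes of complexes II, III and V, 2 rose and 1 fell, Atpaf2 by 0.91, with 8 of 11 changes above 0. In TR cells 0 of the genes of these 3 lists passed (limma), with 5 at an unadjusted p under 0.05, and 9 of 15, 12 of 20 and 4 of 11 changes were above 0. In LP TR against LP SP 5.03% of all genes tested rose and 4.47% fell. There Adck3, a factor of coenzyme Q synthesis, rose by 2.20 ± 0.36. Gpd2, the glycerol phosphate dehydrogenase that feeds electrons to ubiquinone, fell by 2.90 ± 0.55. Pdhb, of the pyruvate dehydrogenase complex, fell by 0.56 and Hspa9, the matrix chaperone, by 0.50. Of 19 genes for mitochondrial RNA processing 1 rose, Fastkd3 (28.34 ± 7.60 to 196.6 ± 49.8, n = 3 each), a share near that of all genes.

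Across the 18 libraries the mitochondrial members moved together more than the nuclear ones. The median Pearson correlation of log2 values was 0.70 over the 78 pairs of mitochondrial genes, 0.12 over the 2850 nuclear pairs and -0.05 over the 988 mixed pairs. These are descriptions over libraries that share groups and depth. Outside the members, the rows most like the mean mitochondrial profile were Gm13341, Snhg1 and 2010300C02Rik (r = 0.89 each) and Themis and Nr4a2 (r = 0.88 each). Gm13341 is annotated in GENCODE as an unprocessed pseudogene on chromosome 2. Those most like the mean nuclear profile were Gm4950 and Emc9 (r = 0.81 each), Gm9840 (r = 0.79), and Psmb3 and Gm15460 (r = 0.78 each), of which Gm4950, Gm9840 and Gm15460 are annotated as processed pseudogenes. The median correlation of the members themselves with their own mean profile was 0.86 for mitochondrial and 0.41 for nuclear genes.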

How the data were processed

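The deposited table holds normalised counts per gene, a signal value that the authors made as the read count times 1 factor per library, as the values themselves show; how the factors were computed is not given in the sources used here. TopHat, HTSeq and the build mm10 are named in the submitters' processing notes. Recovered reads were whole in 100% of values, within 0.1 of a step. Members and lists were chosen with earlier results of these data known. Genes that reached 10 in 3 or more libraries were tested with limma 3.58.1 in R 4.3.3 on log2(value + 1), with a trended and robust variance, two-sided, with Benjamini-Hochberg adjustment over 15472 genes. Such log2 changes understate the change of low genes. Comparisons without IEL TR were fitted on the 15 libraries of the other groups, and those with IEL TR on the 6 libraries compared, because that group spreads more. The difference of the TR effect used 12 libraries with 1 weight per group. edgeR 4.0.16 and DESeq2 1.42.0 on recovered reads were alternatives, beside other scalings, filters, pseudocounts, fits and left-out libraries. Gene positions and lengths come from GENCODE M21, which matched 89 of 89 members, and promoters from RefSeq. Scripts were tested on simulated data. There 18 of 92 limma calls were false in LP TR against SP and 13 of 79 in LP DP against TR. In IEL SP against LP SP 9 of 70 were false, and in IEL TR against SP 0 of 3. For the difference of the TR effect 20 of 36 were false. Outside IEL TR against SP, these simulated calls thus held more false ones than an adjusted p under 0.05 names. The data gave far more calls: 1470 in LP TR against SP, 2039 in LP DP against TR and 1533 in IEL SP against LP SP. The simulated shares therefore do not measure the false ones among the real calls, which can also exceed the threshold. The rule for named genes took up to 5 called members per direction and comparison, the 2 highest-mean members of each complex, all mitochondrial and Sdh genes and the isoform sets, and of each pathway list the 2 smallest p among those called. Likeness is Pearson's r over 18 libraries with the mean scaled profile of the members. The rule also takes Atp5s, Atp5sl and Cox7a2l, which are not plain subunits, and leaves out Cyc1 and Ndufab1. Python 3.11.15 and pandas 2.3.3 were used. Some genes are not reported by name here.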

Additional observations from a re-analysis of the deposited data

How the results depend on the processing

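Of 36 member calls, 12 held in all 15 alternatives and 0 reversed direction. They were mt-Nd1, mt-Nd4, mt-Cytb and Ndufa6 in LP TR against SP, mt-Nd1, mt-Nd4, mt-Atp6, mt-Atp8 and Ndufa8 in LP DP against TR, Ndufa8 and mt-Nd1 in IEL DP against LP DP, and Atp5d in IEL SP against LP SP. Counts of called members that moved by over 1.5 times follow, and the cause was not tested. In 1 unweighted fit over all 18 libraries the counts were 7 nuclear and 5 mitochondrial (IEL TR against SP), 4 and 1 (IEL DP against TR), 3 mitochondrial (LP TR against SP), 3 nuclear (LP DP against TR), 3 nuclear (IEL SP against LP SP) and 1 nuclear (IEL TR against LP TR). DESeq2 gave 3 nuclear (IEL TR against SP), 2 nuclear and 1 mitochondrial (IEL DP against TR), 1 nuclear (LP DP against SP), 11 nuclear (LP TR against SP), 9 nuclear (LP DP against TR), 11 nuclear (IEL SP against LP SP) and 3 mitochondrial (IEL DP against LP DP). With no filter there were 1 mitochondrial (IEL TR against SP), 3 nuclear (LP DP against TR), 3 nuclear (IEL SP against LP SP) and 1 nuclear (IEL DP against LP DP). Equal totals gave 12 nuclear calls in IEL SP against LP SP. Equal totals without mitochondrial genes gave 11 there and 1 mitochondrial call in IEL DP against TR. TMM scaling gave 2 mitochondrial calls in IEL DP against LP DP.

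The replicate block gave 0 mitochondrial calls in IEL TR against SP, 1 nuclear in LP DP against SP, 7 nuclear in LP TR against SP, 10 nuclear in LP DP against TR, 10 nuclear in IEL SP against LP SP and 6 mitochondrial in IEL DP against LP DP. The labels do not say what same-numbered libraries share. The correlation of their deviations was low but above 0 throughout, at 0.00053 to 0.0887 over 45 pairs. With 18 of 18 libraries correlating most with their own number, the numbers carry some shared structure. The main fits hold no replicate block, and what lies behind the numbers was not tested.

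Leaving out 1 library gave 0 to 3 mitochondrial calls in IEL TR against SP, 4 to 7 mitochondrial and 2 to 8 nuclear in LP TR against SP, 5 to 9 mitochondrial and 2 to 5 nuclear in LP DP against TR, 2 to 6 nuclear in IEL SP against LP SP, and 1 to 2 nuclear in IEL DP against LP DP. The 5 came without LP DP replicate 1 or LP TR replicate 2. The nuclear 8 came without LP TR replicate 3, and the nuclear 2 in LP TR against SP without LP SP replicate 2 or 3. The nuclear 2 in LP DP against TR came without LP DP replicate 1 or 3 or LP TR replicate 2. That in IEL SP against LP SP came without IEL SP replicate 1 or 3 or LP SP replicate 3. The nuclear 1 in DP cells came without replicate 2 or 3 of either site.

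Equal totals moved the median of all genes from -0.052 to -0.195 in IEL TR against SP and from 0.055 to 0.236 in IEL DP against TR. The split of all genes called went from 231 higher and 219 lower to 164 and 236 in the first, from 275 and 365 to 298 and 235 in the second, and from 634 and 838 to 860 and 625 in IEL DP against LP DP. Over the alternatives the mitochondrial median stayed between -0.56 and -0.39 in LP TR against SP and between -0.54 and -0.28 in IEL TR against SP. The nuclear median of the latter ran from -0.14 to 0.06. In simulated data, 0% of genes changed 2-fold were recovered in IEL TR against SP. That simulation gave 3 calls in all where the data gave 450, so it does not measure recovery for the members.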
